A study of Mus musculus with 6 samples.

Results

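The transcription factors of the trophectoderm were followed across an array experiment in J1, a line of mouse embryonic stem cells, in which the histone demethylase family gene Jmjd1c was targeted with short hairpin RNAs. The genes were Cdx1, Cdx2, Eomes, Elf5, Tead4, Gata2, Gata3, Tfap2a and Hand1. Every probe set whose only symbol in the platform annotation was one of these 9 was taken, which gave 17 of the 45037 probe sets that are not controls. The tested cells carried a lentiviral pLKO.1 hairpin against Jmjd1c, either shJmjd1c#3 (sh3) or shJmjd1c#4 (sh4), and the control cells carried a non-targeting hairpin (shNT). The labels give 2 biological replicates in each of the 3 groups, 1 array apiece, and this number limits the precision. All groups had passed puromycin selection at 1.5 ug/ml for 2 days, starting 1 day after infection, and were then replated and grown for 4 days. The medium held 15% serum and 1000 U/ml leukemia inhibitory factor, on gelatin, and the labels list no feeder cells. The labels describe the controls as wild type, and a clone or pool of infected cells is not stated beyond the selection.

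The trophectoderm is the outer epithelium of the blastocyst, from which the trophoblast of the placenta forms. Tead4, the DNA-binding partner of the Hippo pathway coactivator Yap1, acts upstream of Cdx2 and Gata3 in this layer, and Cdx2 opposes Pou5f1, which holds embryonic stem cells in the pluripotent state. Eomes and Elf5 act with Cdx2 in trophoblast stem cells, Gata2, Gata3 and Tfap2a regulate trophoblast genes, and Hand1 is needed for trophoblast giant cells. Cdx1 and Cdx2 also pattern the posterior embryo, so their RNA does not mark trophectoderm alone.

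The values are single-array signals on a linear scale, and most of these genes were dim. The median signal of an array was between 69.2 and 81.0. Probe sets for TrpnX, a bacterial sequence used as a negative control, read at most 27.8 and 18.1 on the sh3 arrays, 19.2 and 16.9 on the sh4 arrays, and 8.90 and 5.62 on the shNT arrays. The highest TrpnX reading was thus larger on every knockdown array than on either control array. The dim end of all probe sets differed less. Its 10th percentile was 4.78 to 5.49 on the knockdown arrays and 4.74 and 4.31 in shNT. The 25th percentile was 20.5 to 23.2 on the knockdown arrays and 20.8 and 19.5 in shNT. Signals were tested as log2(signal + 16), a scale that understates the change of dim genes. One limma fit covered the 12684 genes whose brightest probe set had a mean of at least 5.81 on that scale. This corresponds to a signal of 40.1 (the filter signal). A second limma fit covered all 45037 probe sets with no filter. The brightest Jmjd1c probe set, 1426900_at, read 4541 and 4984 in sh3, 3274 and 4215 in sh4, and 6060 and 5516 in shNT, which is -0.46 on the log2 scale (SE 0.13, adjusted p = 0.358 by limma over all probe sets). The other Jmjd1c probe sets read higher in the knockdown arrays, by a log2 of 0.73 at 1439998_at and 0.90 at 1448049_at, and the last passed only when replicate numbers were taken as a block (adjusted p = 0.117 without and 0.0127 with it, by limma), so the groups are called knockdown by their labels only.

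Of the 17 probe sets, 9 read above the highest TrpnX value of their own array on all 6 arrays. Only 4 read above the filter signal on every array: both of Eomes, 1450333_a_at of Gata2 and 1417525_at of Hand1. No array exceeded it at 5 probe sets. The mean over the 6 arrays passed the filter at 9 probe sets, so 6 of the 9 genes (Cdx2, Eomes, Tead4, Gata2, Tfap2a and Hand1) had a probe set in the fit over genes. Cdx1, Elf5 and Gata3 did not, and their values come from the fit over all probe sets. The single-array signals are shown in the plot of the 17 probe sets. In that plot Cdx2 1422075_at and Gata2 1428816_a_at are the probe sets with every knockdown array above the filter signal and both controls below it.

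**Figure D1:**
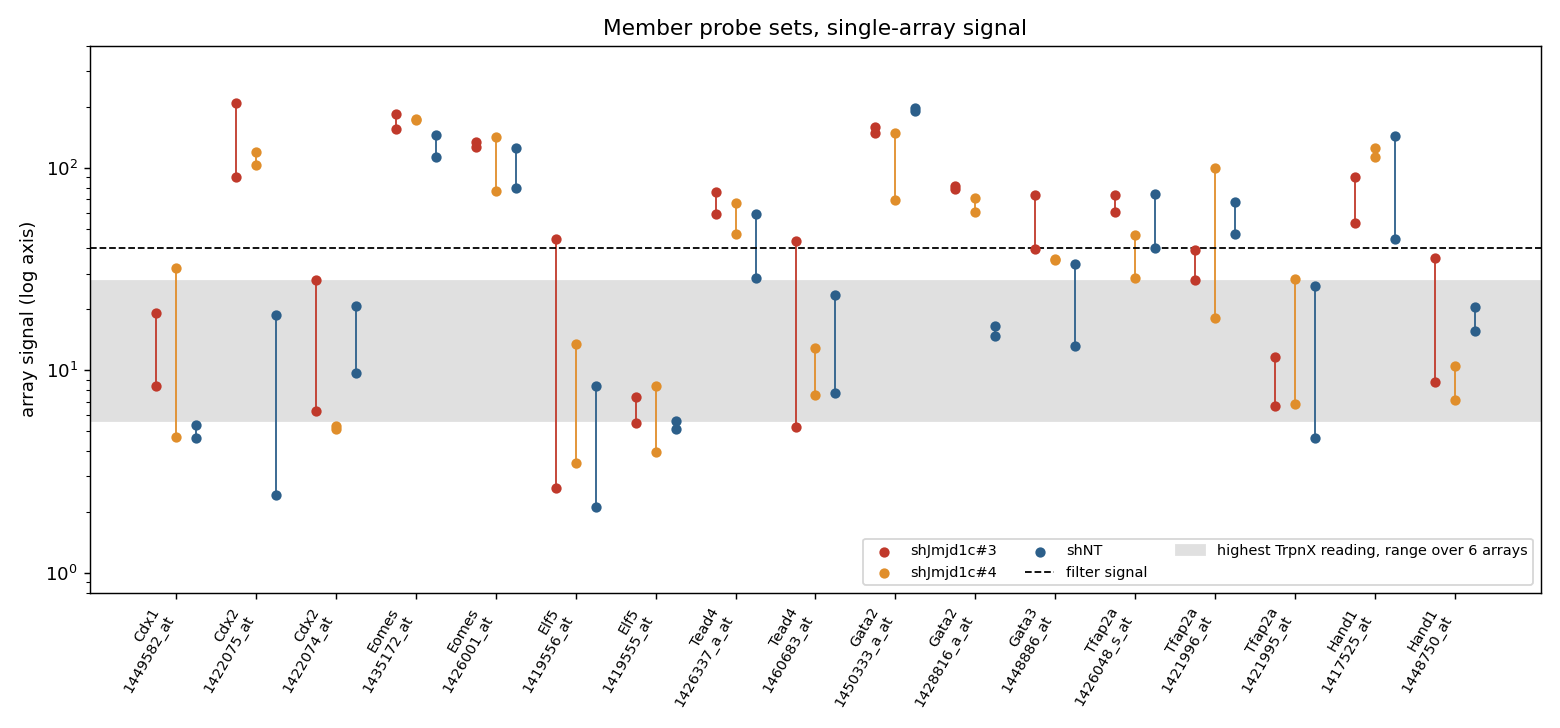
Signal (log axis) of the 17 probe sets of the 9 genes on each array, with sh3, sh4 and shNT from left to right at each probe set and 1 point per array joined by a line within a group. The dashed line is the filter signal of 40.1 and the grey band runs over the highest TrpnX reading of each of the 6 arrays, from 5.62 to 27.8; Cdx2 1422075_at read 90.6 to 209 in the knockdown arrays and 18.8 and 2.43 in shNT.

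Cdx2 was the member whose signal differed most. Its probe set 1422075_at read 90.6 and 209 in sh3, 104 and 120 in sh4, and 18.8 and 2.43 in shNT. All 4 knockdown arrays lay well above both controls, and the groups did not overlap. On its array this probe set stood at percentile 52.9 and 66.0 of all probe sets in sh3, 54.4 and 57.9 in sh4, and 23.5 and 5.19 in shNT, so its place among the other probe sets moved with its signal. The mean signal of the knockdown arrays was 131 ± 53.4 (SD, n = 4) and their geometric mean 124. The controls were under the filter signal and one of them was under the TrpnX reading of its array, so the fold is given as a bound, the geometric mean over the filter signal, which was at least 3.09-fold.

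The mean of both hairpins was 2.47 above shNT on the log2 scale (SE 0.40, adjusted p = 0.0361 by limma over genes). In that comparison 0.725% of genes passed, 0.56% higher and 0.166% lower, and Cdx2 was the only one of the 6 tested members to pass. Cdx2 passed the filter only through its knockdown arrays, so its presence among the tested genes is not separate support. In the stricter fit over all probe sets, where 0.0422% passed, the adjusted p was 0.126 by limma, and 0.0268 in the fit that takes the replicate number as a block, where 1.03% passed. The same block over genes gave 0.00405, where 5.6% of genes passed. Without shNT replicate 2, the array with the lowest Cdx2 signal, the difference was 2.01 and the adjusted p 0.155 by limma over genes. With every signal raised to at least 27.8, the highest TrpnX reading, the difference was 1.68 (adjusted p = 0.0661 by limma), a setting chosen after seeing the data. The call was also lost without sh3 replicate 2 (log2 2.20, adjusted p = 0.0943 by limma) and without either sh4 array (2.52 and 2.43, adjusted p = 0.104 and 0.0794 by limma).

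Each hairpin was then set against the same 2 control arrays. Cdx2 was 2.61 above shNT in sh3 (SE 0.46, adjusted p = 0.0847 by limma over genes) and 2.33 above it in sh4 (SE 0.46, adjusted p = 0.079 by limma). Neither passed by itself, in comparisons where 0.071% and 0.363% of genes passed, and of the 6 tested members 1 in sh3 (Cdx2) and 2 in sh4 (Cdx2 and Gata2) had an unadjusted p under 0.05, as did 9.74% of all genes in sh3 and 12.1% in sh4. Under the replicate block both hairpins passed (adjusted p = 0.00994 in sh3 and 0.0139 in sh4 by limma, where 3.43% and 4.9% of genes passed). Set directly against sh3, sh4 was at -0.28 (SE 0.46; by limma the adjusted p was 0.956). Here 0% of genes passed without the block, while 774 had an unadjusted p under 0.05. The array samples are bulk RNA, in which more cells with Cdx2 RNA and more Cdx2 RNA per cell cannot be told apart.

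The second Cdx2 probe set, 1422074_at, did not show the difference. It read 6.32 and 28.0 in sh3, 5.13 and 5.33 in sh4, and 9.66 and 20.8 in shNT. These signals overlapped between groups, none reached the filter signal, and only 3 of the 6 arrays read above their own TrpnX maximum. Its log2 difference was -0.25 (SE 0.37, adjusted p = 0.901 by limma over all probe sets). The annotation assigns both probe sets to the same reference transcript, and their positions along it were not analysed here. The change in Cdx2 therefore rests on 1 probe set of 2, the other staying under the filter signal on every array.

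Cdx1, a relative of Cdx2 active in the posterior embryo, had 1 probe set, 1449582_at. It read 8.39 and 19.3 in sh3, 4.70 and 31.9 in sh4, and 4.63 and 5.39 in shNT. The groups overlapped through sh4 replicate 1, and no array reached the filter signal. The log2 difference was 0.53 (SE 0.40, adjusted p = 0.770 by limma over all probe sets), and no fold is given because both groups were below the filter signal.

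Gata2, a zinc finger factor of trophoblast and blood progenitors, gave opposite readings at its 2 probe sets. The brighter, 1450333_a_at, read 160 and 149 in sh3, 69.5 and 149 in sh4, and 197 and 190 in shNT. All 4 knockdown arrays lay below both controls, with sh4 replicate 1 the lowest. The log2 difference was -0.56 (SE 0.28, adjusted p = 0.473 by limma over genes), which did not pass. By hairpin it was -0.30 in sh3 and -0.82 in sh4, and sh4 set against sh3 was at -0.52 (SE 0.33; by limma the adjusted p was 0.859).

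The other Gata2 probe set, 1428816_a_at, read 78.6 and 81.1 in sh3, 60.2 and 70.8 in sh4, and 16.6 and 14.7 in shNT. Here every knockdown array lay above both controls, and the spread within each group was small beside the gap. The knockdown arrays averaged 72.7 ± 9.38 (SD, n = 4), and their geometric mean was 72.2. Both controls were under the filter signal, so the fold over shNT is given as a bound, at least 1.8-fold. The log2 difference was 1.48 (SE 0.34, adjusted p = 0.263 by limma over all probe sets, and 0.0958 with the replicate block), 1.60 in sh3 and 1.36 in sh4, and it passed in neither fit. After Cdx2 1422075_at it was the member probe set with the smallest p, and these 2 of the 17 had an unadjusted p under 0.05, as did 8.66% of all probe sets. When the log2 values of both Gata2 probe sets were averaged the difference was 0.46 instead of -0.56, so the direction of Gata2 as a gene depended on the probe set read.

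The upstream sequences of Cdx2 and Gata2 are shown because their probe sets gave the largest differences. The RefSeq table (GRCm38.p6) lists 2 Gata2 starts, 4773 bases apart, and both are shown. Each line is the 250 bases before the listed start, 5′ to 3′ on the gene's strand. Capitals mark matches, on either strand, to the TEAD core GGAATG, the GATA motif AGATAA, the CDX motif TTTATG, the TATA box motif TATAAA, the CCAAT box by those letters and the GC box motif GGGCGG. None of these matches overlapped another.
Cdx2, chr5:147307250-147307499, minus strand: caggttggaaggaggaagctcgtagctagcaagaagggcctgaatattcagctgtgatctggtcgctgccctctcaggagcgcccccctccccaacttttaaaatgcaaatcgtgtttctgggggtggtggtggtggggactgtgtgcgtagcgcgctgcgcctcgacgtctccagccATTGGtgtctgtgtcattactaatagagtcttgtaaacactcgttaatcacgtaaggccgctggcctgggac
Gata2 start 1, chr6:88193641-88193890, plus strand: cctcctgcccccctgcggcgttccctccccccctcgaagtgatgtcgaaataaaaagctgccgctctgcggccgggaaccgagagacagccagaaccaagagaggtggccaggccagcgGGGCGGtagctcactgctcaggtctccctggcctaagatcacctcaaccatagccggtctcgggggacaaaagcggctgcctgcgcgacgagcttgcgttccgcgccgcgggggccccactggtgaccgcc
Gata2 start 2, chr6:88198414-88198663, plus strand: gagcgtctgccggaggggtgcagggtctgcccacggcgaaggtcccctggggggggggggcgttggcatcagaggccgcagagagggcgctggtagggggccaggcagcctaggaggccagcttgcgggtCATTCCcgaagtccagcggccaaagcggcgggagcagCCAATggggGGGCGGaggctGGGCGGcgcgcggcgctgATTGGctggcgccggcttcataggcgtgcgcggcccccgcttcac
The Cdx2 window held 1 CCAAT box, on the opposite strand, 72 to 68 bases before the start. The window of the first Gata2 start held 1 GC box, and that of the second held 1 TEAD core on the opposite strand, 2 CCAAT boxes and 2 GC boxes. Among the 32851 promoters of the table, 12.6% held the TEAD core, 9.99% the GATA, 10.8% the CDX and 12.4% the TATA motif, 33.8% the CCAAT box and 32.7% the GC box. GC content was 55.2% in the Cdx2 window, 67.2% and 74.0% in the Gata2 windows, and 52.4% in the median promoter. These matches describe the letters of the windows, and which start each Gata2 probe set reads was not analysed here. Promoters were found in the table for 6 of the 9 genes.

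Gata3, which is switched on in the trophectoderm alongside Cdx2, had 1 probe set, 1448886_at. It read 39.7 and 73.3 in sh3, 35.6 and 34.9 in sh4, and 33.4 and 13.2 in shNT. The knockdown arrays lay above both controls, but sh4 exceeded the higher control by little and only sh3 replicate 2 passed the filter signal. The log2 difference was 0.66 (SE 0.40, adjusted p = 0.702 by limma over all probe sets).

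Eomes, a T-box factor of trophoblast stem cells that is also used in early mesendoderm, was among the brightest members. Probe set 1435172_at read 156 and 184 in sh3, 174 and 173 in sh4, and 146 and 113 in shNT. The knockdown arrays lay above both controls by a margin smaller than the gap between the controls. The log2 difference was 0.38 (SE 0.22, adjusted p = 0.544 by limma over genes), 0.36 in sh3 and 0.39 in sh4. Probe set 1426001_at read 127 and 134 in sh3, 141 and 77.2 in sh4, and 125 and 79.8 in shNT, so its groups overlapped and its log2 difference was 0.19 (SE 0.32, adjusted p = 0.911 by limma over all probe sets).

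Tead4 was read by 1426337_a_at at 75.9 and 59.5 in sh3, 47.4 and 67.4 in sh4, and 28.6 and 59.1 in shNT. The groups overlapped because sh4 replicate 1 lay below one control, and the log2 difference was 0.43 (SE 0.34, adjusted p = 0.679 by limma over genes). Its other probe set, 1460683_at, stayed between 5.26 and 43.6 in the knockdown arrays and at 7.75 and 23.5 in shNT, with a log2 difference of -0.0057 (SE 0.46) by limma over all probe sets.

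Elf5, an ETS-domain factor that with Cdx2 and Eomes maintains trophoblast stem cells, was dim. Probe set 1419556_at read 44.5 and 2.64 in sh3, 3.48 and 13.5 in sh4, and 8.35 and 2.11 in shNT. A single array, sh3 replicate 1, was above the filter signal while its replicate was near the bottom of the scale, and the groups overlapped. The second probe set, 1419555_at, read between 3.95 and 8.38 in the knockdown arrays and 5.65 and 5.16 in shNT, on no array above the TrpnX maximum. Neither difference passed (log2 0.43 and 0.06, adjusted p = 0.857 and 0.972 by limma over all probe sets).

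Tfap2a, an AP-2 factor of trophoblast and neural crest, had 3 probe sets. The one kept in the fit over genes, 1426048_s_at, read 73.1 and 60.8 in sh3, 46.8 and 28.7 in sh4, and 73.9 and 40.01 in shNT. The groups overlapped fully, and the log2 difference was -0.10 (SE 0.34, adjusted p = 0.94 by limma over genes). The suffix of that probe set marks one whose probes can match transcripts of more than 1 gene. The other probe sets also overlapped between groups, with log2 differences of -0.38 at 1421996_at and -0.06 at 1421995_at (adjusted p = 0.888 and 0.980 by limma over all probe sets).

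Hand1, a basic helix-loop-helix factor of giant cells, heart and extraembryonic mesoderm, read 90.6 and 53.5 in sh3, 114 and 125 in sh4, and 143 and 44.8 in shNT at 1417525_at. The controls spanned the knockdown arrays, and the log2 difference was 0.13 (SE 0.40, adjusted p = 0.932 by limma over genes). At 1448750_at the signals stayed below the filter signal, between 7.11 and 35.8 in the knockdown arrays and at 20.5 and 15.7 in shNT, with a log2 difference of -0.19 (adjusted p = 0.926 by limma over all probe sets).

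Taking the 17 probe sets as they stand, all 4 knockdown arrays lay above both controls at 4 (Cdx2 1422075_at, Eomes 1435172_at, Gata2 1428816_a_at and Gata3 1448886_at) and below both at 1 (Gata2 1450333_a_at). The groups overlapped at the other 12. Over all 45037 probe sets 9.66% lay wholly above and 7.62% wholly below, and over the 25703 probe sets within the members' range of mean signal 9.57% and 6.04%. Over all probe sets with both controls under the filter signal, 12.1% lay wholly above and 4.2% wholly below. Among the member probe sets this dim in both controls, Cdx2 1422075_at, Gata2 1428816_a_at and Gata3 1448886_at lay wholly above. The others overlapped between groups: Cdx1, both of Elf5, Cdx2 1422074_at, Tead4 1460683_at, Tfap2a 1421995_at and Hand1 1448750_at. Differences were positive at 10 of the 17, with a median log2 of 0.13 and a range of -0.56 to 2.47. The median was 0.02 over all probe sets, 0.06 over those within the members' range of mean signal, and 0.13 over those dim in both controls. The probe sets of a gene share that gene and are not independent, and the plot of differences by hairpin shows how far apart they lay.

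**Figure D2:**
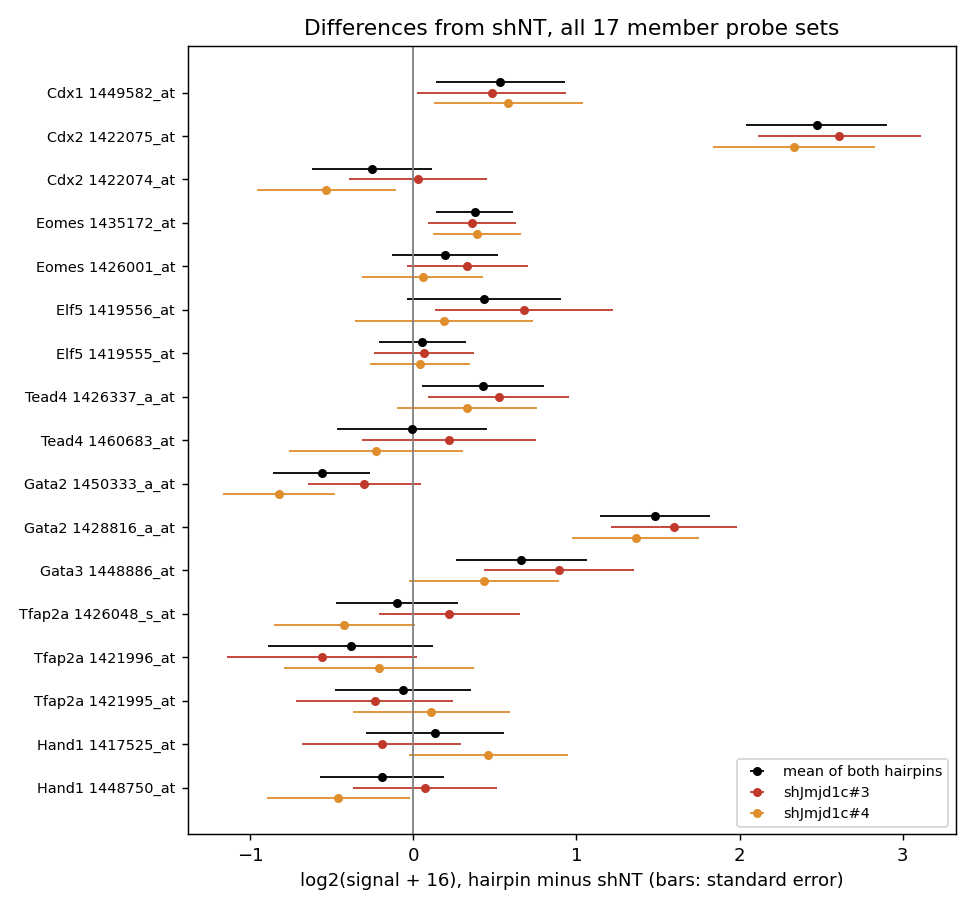
Differences in log2(signal + 16) from shNT at each of the 17 probe sets, for the mean of both hairpins (black), sh3 (red) and sh4 (orange), with bars of 1 standard error from limma over all probe sets. Cdx2 1422075_at at 2.47 and Gata2 1428816_a_at at 1.48 lie to the right of the others, while the second probe set of each gene lies at -0.25 and -0.56.

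Genes that accompany these factors were read from lists in the same fit over genes. The list of other trophoblast regulators had 15 tested of 16, none of which passed by limma (9 had an unadjusted p under 0.05, as did 12.3% of all genes), with 6 positive differences and a median log2 of -0.13 against 0.01 over all genes tested. Fgfr2, the receptor through which FGF4 maintains trophoblast stem cells, differed by 0.78 (adjusted p = 0.159 by limma). Cited2, a transcriptional coregulator needed in the placenta, differed by 0.39 (adjusted p = 0.217 by limma), while Esrrb and Sox2, which serve both trophoblast and embryonic stem cells, differed by -0.77 and -0.33 (adjusted p = 0.207 and 0.191 by limma). With the replicate block these 4 passed (adjusted p between 0.000586 and 0.0306 by limma), together with Tfap2c at -0.47, giving 2 higher and 3 lower where 3.33% and 2.26% of genes passed.

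Among genes of the trophectoderm epithelium 1 of 10 tested passed, where 0.56% of all genes were called higher. By limma 2 of the 10 had an unadjusted p under 0.05, as did 12.3% of all genes. Lrp2, the endocytic receptor megalin, rose in the knockdown mean, with signals of 991 and 860 in sh3, 993 and 777 in sh4, and 466 and 324 in shNT (log2 1.18, SE 0.18, adjusted p = 0.0361 by limma). Every knockdown array exceeded both controls, as at 11.2% of genes tested (9.54% lay wholly below), and without the probe sets that can match several transcripts the difference was 0.87 and did not pass (adjusted p = 0.112 by limma). The Lrp2 call was also lost without shNT replicate 2, either sh3 array or sh4 replicate 1 (adjusted p of 0.0720 to 0.144 by limma, log2 0.93 to 1.23). Lrp2 is also expressed in other absorptive epithelia, primitive endoderm derivatives among them. The trophectoderm keratins Krt8, Krt18, Krt19 and Krt7 differed by 0.49, 0.43, 0.44 and 0.07, and none passed (adjusted p of 0.562 to 0.948 by limma). With the block Krt8 and Krt18 passed and Krt19 and Krt7 did not (adjusted p = 0.0438, 0.0311, 0.0676 and 0.881 by limma), where 3.33% of genes were called higher. By hairpin, Krt8, Krt18 and Krt19 passed with the block in sh3 (adjusted p of 0.0179 to 0.0242 by limma, where 2.03% of genes were called higher) and no keratin passed in sh4 (0.224 to 0.702). Set against sh3, sh4 passed at none of the 4 keratins in that fit (adjusted p of 0.148 to 0.354 by limma). Aqp3, a water channel, differed by -0.65, the sodium pump subunit Atp1b1 by -0.28 and the desmosome protein Dsp by 0.19, and none of these passed. With the block Dsp passed in sh3 (log2 0.49, adjusted p = 0.0392 by limma) and not in sh4 (log2 -0.11, adjusted p = 0.641 by limma). Set against sh3 in that fit, sh4 was at -0.60 for Dsp and did not pass (adjusted p = 0.0508 by limma).

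Placental products had 6 tested of 16 listed, none of which passed by limma, with 1 at an unadjusted p under 0.05 (Rhox6), as were 12.3% of all genes. The homeobox gene Rhox6 read 126 and 157 in sh3, 102 and 192 in sh4, and 214 and 314 in shNT, all knockdown arrays below both controls (log2 -0.81, adjusted p = 0.293 by limma, and 0.0371 with the block). Its neighbour Rhox9 differed by -0.45, the imprinted gene Peg10 by 0.43 and Plac1, a placental surface protein, by 0.23. Tpbpa, which defines the spongiotrophoblast, read between 3.61 and 26.4 in the knockdown arrays and 22.4 and 23.0 in shNT, under the filter signal throughout.

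Of the Hippo pathway, through which Tead4 is controlled, 1 of 19 tested genes passed, where 0.56% of genes were called higher. By limma 8 of the 19 had an unadjusted p under 0.05, as did 12.3% of all genes. In this list 15 differences were positive, with a median log2 of 0.29. The kinase gene Lats2 rose at 1439441_x_at, with signals of 310 and 358 in sh3, 231 and 296 in sh4, and 108 and 122 in shNT (log2 1.25, SE 0.20, adjusted p = 0.0361 by limma). The groups did not overlap. This probe set is 1 of 6 for Lats2, and its suffix marks one whose probes can match several transcripts. The mean of all 6 Lats2 probe sets differed by 0.38 and did not pass (adjusted p = 0.665 by limma). Leaving out any 1 array put the adjusted p of Lats2 between 0.0707 and 0.127 by limma. Cyr61, a target of Yap1 and TEAD factors, differed by 0.69 (adjusted p = 0.0994 by limma), the Tead4 relative Tead2 by 0.61 and the scaffold Amot by 0.53. With the block 6 passed, all higher, these 3 among them, where 3.33% of genes were called higher, although Amot was at -0.05 when its probe sets were averaged.

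The posterior genes that Cdx factors act on in the embryo had 6 of 20 in the test, of which none passed by limma, 0 had an unadjusted p under 0.05 and 2 were positive (median log2 -0.04). Hoxa9 differed by -0.44, Hoxc6 by -0.10, Hoxd8 by 0.28 and the presomitic factor Tbx6 by -0.08. The other Gata, Tfap2, Hand, Tbx and Elf genes had 7 of 13 in the test, none passed by limma (0 at an unadjusted p under 0.05), and Tfap2e, Gata1, Gata6 and Tbx3 differed by 0.41, -0.26, 0.15 and -0.18. In the plot of the lists the single calls of trophectoderm epithelium and Hippo pathway stand apart from the rest of their lists.

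**Figure D3:**
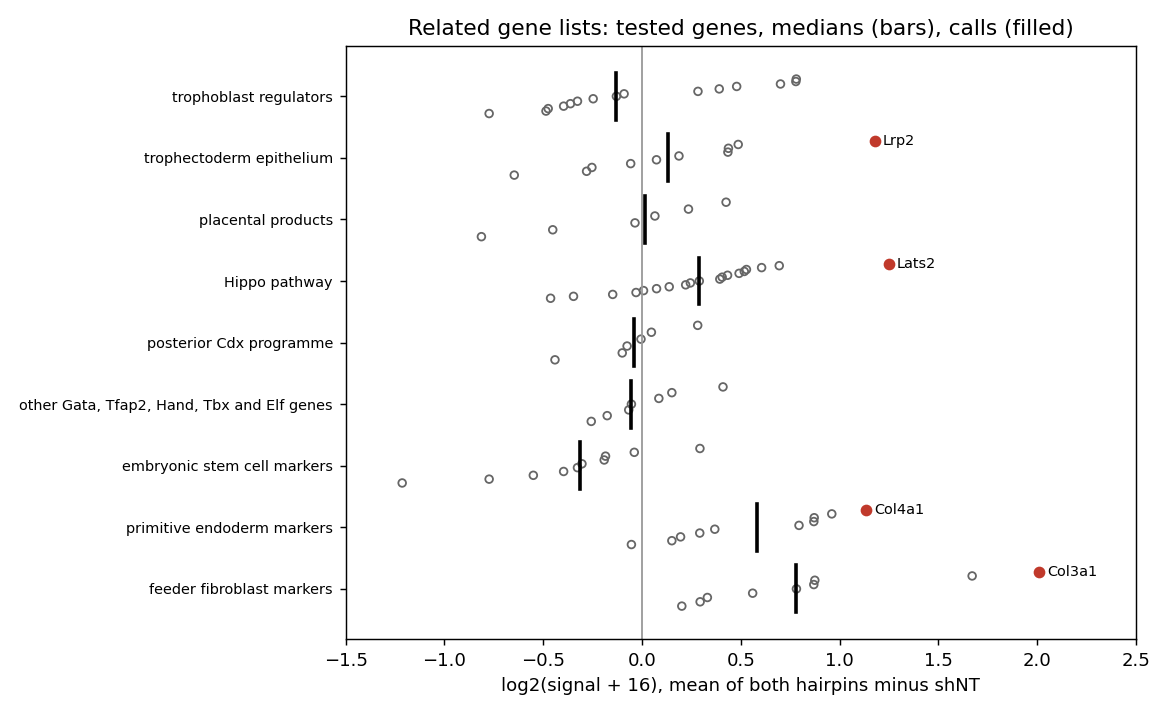
Difference in log2(signal + 16), mean of both hairpins minus shNT, for each tested gene of the related lists and marker lists; black bars are list medians and filled points are genes past the limma threshold. Trophoblast regulators have a median of -0.13 and no call, while the calls among the lists are Lrp2 at 1.18, Lats2 at 1.25, Col4a1 at 1.13 and Col3a1 at 2.01.

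Markers of other cell types were read beside the members. Of 10 embryonic stem cell markers none passed by limma (4 at an unadjusted p under 0.05, as were 12.3% of all genes). In this list 1 difference was positive and the median log2 was -0.32. The summed signal of these markers ran from 92110 to 104435 in the knockdown arrays and from 108930 to 130956 in shNT. Of the 10, 4 lay wholly below both controls, as did 9.54% of genes tested. These were Tcl1, Esrrb, Klf4 and Sox2, which differed by -1.21, -0.77, -0.55 and -0.33. The other stem cell markers overlapped between groups, among them Pou5f1, the factor opposed by Cdx2, which differed by -0.04. Primitive endoderm markers passed at 1 of 10 (Col4a1, a basement membrane collagen, log2 1.13, adjusted p = 0.0214 by limma), where 0.56% of genes were called higher. By limma 5 of the 10 had an unadjusted p under 0.05, as did 12.3% of all genes. The higher sum of the endoderm markers lay mainly in sh4. It was 2229 and 2418 in sh3, 5510 and 4316 in sh4, and 1904 and 2069 in shNT, and without Col4a1 it was 1184 and 1142 in sh3, 2837 and 2266 in sh4, and 1205 and 1283 in shNT. The median log2 difference from shNT was 0.09 in sh3, where 4 of the 10 were negative, and 1.09 in sh4, where 1 was. Set against sh3, sh4 had none of the 10 past the threshold by limma (8 at an unadjusted p under 0.05, as were 6.1% of all genes). With the block 4 were higher, where 0.173% of genes were called higher. Feeder fibroblast markers passed at 1 of 9 tested (Col3a1), where 0.56% of genes were called higher, and 5 had an unadjusted p under 0.05 by limma, against 12.3% of all genes. The sum over all 15 was 3421 and 3378 in sh3, 4066 and 4160 in sh4, and 2745 and 2639 in shNT. All 9 tested differences were positive, with a median log2 of 0.78. Of the 15 markers 7 lay wholly above the controls, as did 11.2% of genes tested and 8.53% of genes too dim for the test. Col3a1 and Dcn were under the filter signal in both controls and entered the test only through their knockdown arrays, and 6 of the 15 did not enter it. Of those 6, Lum, Twist2 and Fbln5 lay wholly above the controls, while Postn, Fap and S100a4 overlapped between groups. Trophoblast giant cell and spongiotrophoblast markers had 2 of 7 in the test and a sum of 122 to 239 in the knockdown arrays against 214 to 219 in shNT, and of the caudal mesoderm markers only Tbx6 was tested. With the replicate block 6 stem cell markers were lower, where 2.26% of all genes were, and 3 endoderm and 2 fibroblast markers higher, where 3.33% were, by limma. Neither collagen call held without shNT replicate 1, shNT replicate 2, sh3 replicate 2 or sh4 replicate 1 (adjusted p of 0.0582 to 0.101 by limma), and that of Col3a1 was also lost without sh4 replicate 2 (0.0731). Beside Cdx2 and Lrp2, the summed markers of stem cells were lower on all 4 knockdown arrays than on both controls and those of fibroblasts were higher, those of endoderm were higher in sh3 only through Col4a1, and those of giant cells overlapped between groups. Their part in the results was not tested.

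The genes most like Cdx2 across the 6 arrays were chosen by the root mean square difference of their centred log2 values from those of Cdx2. Genes with RIKEN or Gm symbols were passed over, so the ranking holds among the other genes tested. Aadat, an aminotransferase, was nearest at 0.34, followed by the anthrax toxin receptor gene Antxr2 at 0.43, the receptor gene Paqr4 at 0.48, the transcription factor Ets1 at 0.54 and the collagen Col3a1 at 0.55. The median gene lay at 1.25 and the 5th percentile at 1.01. Aadat read 68.6 and 105 in sh3, 102 and 80.7 in sh4, and 18.4 and 3.61 in shNT, with the second control the lower one, as for Cdx2. Ets1 differed from Cdx2 in being bright in every group, at 276 and 506 in sh3, 366 and 459 in sh4, and 134 and 120 in shNT. The measure was set by the contrast of knockdown and control arrays, since both Cdx2 controls were low, and it describes these 6 arrays only. No other member was among the 5 nearest.

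**Figure D4:**
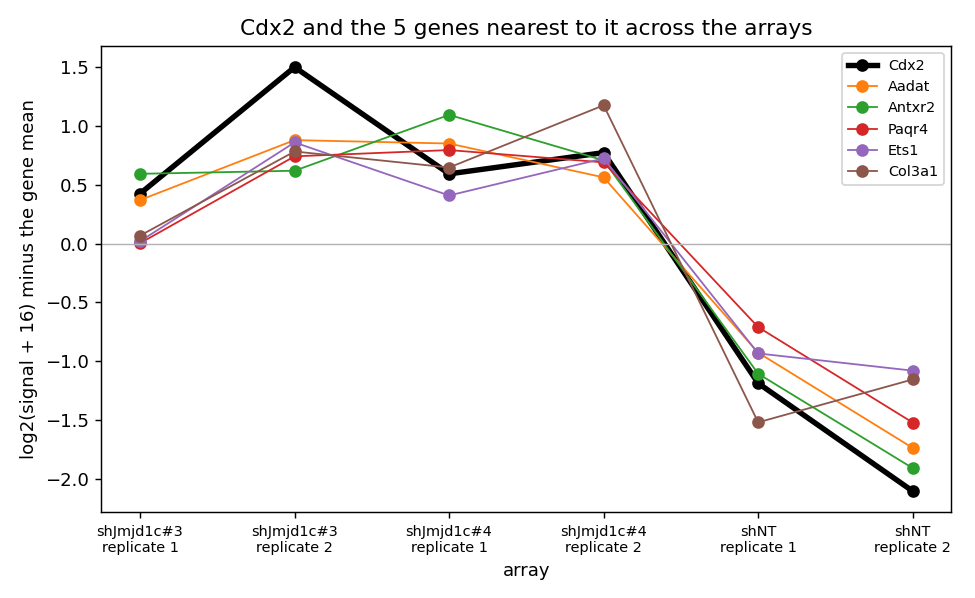
Log2(signal + 16) minus the gene's mean over the 6 arrays for Cdx2 (thick black line) and the 5 genes nearest to it, RIKEN and Gm symbols passed over, with the sh3, sh4 and shNT arrays from left to right. The genes share low values on both shNT arrays, and Cdx2 stands above the others on sh3 replicate 2, where it read 209.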

How the data were processed

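Signal intensities of 6 Affymetrix Mouse Genome arrays, made by the authors with MAS5 per the submitters' processing notes, were used as deposited. No source used here names its version. The labels give 6 ug of RNA per array. The middle 96% of values averaged close to 497 on every array, so signals had been scaled per array. Of 45101 probe sets 64 were controls, 34945 had 1 symbol in the platform annotation, 932 several and 9160 none, and probe sets with several symbols or none were not named.

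The groups came from the transfection label. Signals were transformed to log2(signal + 16), and the probe set with the highest mean represented each of 18193 genes. The filter was the 40th percentile of probe set means (log2 5.81). The 6 arrays were fitted with limma 3.58.1 (R 4.3.3) as 3 group means with an intensity trend, leaving residual df 3 and prior df 5.96 over genes and 5.81 over probe sets. Tests were 2-sided, and p-values were adjusted by Benjamini-Hochberg over every gene or probe set of the fit, with 0.05 as the threshold. P-values measure the spread between arrays labelled biological replicates. Where both controls were under the filter signal, "at least" folds divide the geometric mean of the knockdown arrays by the filter signal.

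Across genes, arrays with the same number deviated together from their groups, at r = 0.22 to 0.30 for every pair of groups. Arrays were therefore paired by the number in their titles, an inference from these same data, since no label states a shared day. The block fit (residual df 2, prior df 9.34) is given where it changes a call.

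The members and lists were chosen with earlier results of these data known. Named are all member probe sets, up to 4 genes per related list with the smallest p, the 5 genes nearest to Cdx2 (RIKEN and Gm symbols passed over), and Krt7, Krt8, Krt18, Krt19, Tfap2c, Tpbpa, Postn, Fap, S100a4, Lum, Twist2, Fbln5, Dcn, Tcl1, Klf4 and Pou5f1, which were added after their values were seen. The alternatives were the pseudocount, the filter, normalization between arrays, the trend, the choice of probe sets, the block, the knockdown arrays as 1 group, each array left out, and a floor at the highest TrpnX reading.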

Additional observations from a re-analysis of the deposited data

Results flagged for a closer look

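The bacterial control probe set AFFX-TrpnX-5_at read 14.0 ± 4.17 as the mean of the knockdown arrays (SD, n = 4) and 5.34 ± 0.401 in shNT (SD, n = 2). This signal was used above only as background, as the highest TrpnX reading of replicate 2 in each group. It was higher on all 4 knockdown arrays, at 11.3 and 18.1 in sh3 and 9.61 and 16.9 in sh4, than on both controls, at 5.06 and 5.62. Of the 64 control probe sets 2 lay wholly above and 8 wholly below the controls. The signals are in the range of the dimmest members (Cdx1, both Elf5 probe sets and Cdx2 1422074_at), and its part in their values was not tested.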

How the results depend on the processing

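Cdx2 passed the threshold by limma with a pseudocount of 64 (log2 1.36, adjusted p = 0.0481), quantile normalization (2.42, 0.0448), median centring (adjusted p = 0.0373), the knockdown arrays as 1 group (0.0218) and the replicate block (0.00405). It lost the call, in the same direction, with a pseudocount of 1 (3.92, 0.0517), no filter (2.47, 0.0679), no intensity trend (2.47, 0.127), every probe set tested by itself (2.47, 0.126) and signals floored at the highest TrpnX reading of 27.8 (1.68, 0.0661), a setting chosen after seeing the data. Leaving out 1 array gave 2.01 to 2.93 (adjusted p 0.0402 to 0.155). The count of members past the threshold in the knockdown mean, 1 as reported, was 0 in those 5 settings, with a filter at the 60th percentile and with the mean of probe sets, where Cdx2 was not tested, and 0 to 1 with 1 array left out. With the block it was 1 in sh3 and 1 in sh4, instead of 0. Over all genes the knockdown mean gave 92 calls, against 36 without the filter, 0 without the trend (1499 at an unadjusted p under 0.05, by limma), 34 with the mean of probe sets, 59 without probe sets that can match several transcripts, 19 over probe sets, 710 with the block and 4 to 43 with 1 array left out. The block changed no call of a member other than Cdx2.

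Differences that changed sign were small or uncalled. With the mean of probe sets Gata2 was at 0.46 (0.65 in sh3 and 0.27 in sh4), Hand1 at -0.029 and Amot at -0.0543. Without the probe sets that can match several transcripts Sox17 was at -0.18. With the floor 1422074_at was at 0.0022, 1460683_at at 0.11, 1421995_at at 0.0037 and 1448750_at at 0.0607. The probe set 1460683_at was at 0.0149 with a pseudocount of 64, and 1419555_at at -0.0059 with quantile normalization and -0.0188 with median centring. Leaving out 1 array gave -0.82 to 0.26 for Cdx2 between hairpins, -0.44 to 0.24 for Tfap2a, -0.56 to 0.83 for Hand1, -0.51 to 0.0081 for 1422074_at, -0.0858 to 0.48 for 1426001_at, -0.0163 to 0.13 for 1419555_at, -0.38 to 0.37 for 1460683_at, -0.82 to 0.0565 for 1421996_at, -0.57 to 0.45 for 1421995_at and -0.46 to 0.0744 for 1448750_at. Among list genes it gave -0.98 to 0.0712 for Rhox9, -0.29 to 0.14 for Tbx6, -0.23 to 0.0316 for Hoxc6, -0.0845 to 0.65 for Hoxd8 and -0.59 to 0.24 for Tbx3. The cause was not tested. Signal near background limits Cdx1, Elf5 and the second Cdx2 probe set.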

Other observations

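Of 30 listed genes too dim for the fit over genes, 9 had all 4 knockdown arrays above both controls (Aqp9, Nkx1-2, Cyp26a1, Gata5, Elf4, Lum, Twist2, Fbln5 and Msgn1), 2 had all 4 below (Psg17 and Tfap2d) and 19 overlapped. Over all 5509 genes too dim for that fit, 8.53% lay wholly above and 6.1% wholly below. No test was made, and the 3 described here are examples chosen after their values were seen. Each gene was read at its brightest probe set, of 3 for Nkx1-2 and 2 for Gata5. Of the 11 posterior genes too dim for the fit, only Cyp26a1 and Nkx1-2 lay wholly above the controls, and the others overlapped. Cyp26a1, a retinoic acid hydroxylase of the posterior embryo, averaged 29.8 ± 12.4 in the knockdown arrays and 2.14 ± 0.310 in shNT (SD, n = 4 and 2). It lay near background, at 21.4 and 32.7 in sh3, 46.1 and 19.0 in sh4, and 1.92 and 2.36 in shNT. The highest TrpnX readings of those arrays were 27.8, 18.1, 19.2, 16.9, 8.90 and 5.62. Cyp26a1 was thus under the TrpnX maximum on sh3 replicate 1 and both controls, and no fold is given. Nkx1-2, a homeobox gene of the caudal epiblast, averaged 56.0 ± 14.5 in the knockdown arrays and 12.1 ± 5.21 in shNT. Gata5, an endoderm and heart factor, averaged 53.8 ± 14.4 in the knockdown arrays and 8.79 ± 1.87 in shNT. Of the probe sets with both controls under the filter signal, 12.1% showed the same order of groups.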
